A study of Homo sapiens with 52 samples.

Results

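The genes described here are 42 heat shock proteins and co-chaperones, chosen by gene symbol from the 27043 genes of each expression table, and followed through all 52 RNA-seq samples of a chemical probe study in fusion-positive rhabdomyosarcoma (FP-RMS) cells. FP-RMS is a childhood muscle-lineage cancer, and the cells carry the PAX3-FOXO1 fusion. The screen held 20 compounds at a high and a low dose (1 sample each, 6 h) and 4 DMSO samples, of which 2 held 0.2% DMSO, the titles' high level, and 2 held 0.1%, the low level. Doses were 10 and 1 µM, except for LAQ824, Cpd50 and GSKJ4 (5 and 0.5 µM). Separate experiments held N1302 at 1 µM with 1 DMSO sample at 6 h, and entinostat at 1 µM with DMSO at 1, 6 and 24 h, 1 sample each. The labels give the target of WT161 as HDAC6, of Merck60 as HDAC1/2, of OJI-1 as HDAC8, of MC1568 as HDAC4/5, of entinostat as HDAC1/2/3, and of LAQ824 and N1302 as HDAC without a number. Bromosporin is labelled for bromodomains and SGC-CBP30 for the CREBBP/EP300 bromodomain. The other 13 compounds were Cpd50 (pan Jumonji), GSKJ4 (JMJD3/UTX), EZ-005 (EZH2), UNC1999 (EZH1), GSKLSD1, LSD-519 and LSD-690 (LSD1), PFI-2 (SETD7), PFI-3 (SMARCA4), SGC0946 (DOT1L), UNC0638 (KMT1C), UNC-1215 (L3MBTL3) and Trametinib (MEK1/2). The titles of the screen samples name the line RH41 while their cell-line label names RH4, so screen values were compared only with screen DMSO.

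Heat shock proteins are molecular chaperones that bind unfolded or aggregation-prone protein. HSP70 proteins cycle on and off their clients with the help of J-domain proteins, which deliver clients and stimulate the ATPase, and of BAG and HSP110 proteins, which exchange the nucleotide. HSP90 finishes the folding of kinases and receptors together with its own co-chaperones, small heat shock proteins hold unfolded protein without ATP, and the transcription factor HSF1 raises many of these genes when unfolded protein accumulates. HDAC6 is a cytoplasmic deacetylase, and HSP90 and tubulin are among its known substrates. The study set inhibitors of different HDACs beside each other, and the values below are arranged to show the chaperone genes under WT161, the compound labelled for HDAC6, and under the other HDAC inhibitors.

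The steps between low TPM values gave whole reads, and with them a depth of 5646972 reads in the shallowest and 40825328 in the deepest library. The muscle-lineage markers MYOD1, MYOG, DES and FGFR4 lay between 413 and 981 TPM in the screen DMSO samples, whereas PTPRC, EPCAM and PECAM1, markers of leukocytes, epithelium and endothelium, did not exceed 0.830 TPM in any sample. In 3 libraries (bromosporin, Merck60 and PFI-2 at the high dose) most low read numbers were even, and results that rest on them are given with and without them. The code that ends the header of a sample's values was taken as its flow cell, which is a reading of the code and not a label. Headers of the time course held no such code. Flow cell C5JW5ACXX carried 14 compounds, WT161, Merck60 and OJI-1 among them, and no DMSO sample. For these compounds flow cell and treatment cannot be told apart against DMSO. Values within the flow cell are given for WT161, bromosporin, Trametinib and UNC0638, for some members or as counts. None are given for SGC-CBP30, LSD-690 or PFI-2. LAQ824 and MC1568 shared flow cell H144EBGXX with 2 DMSO samples. After removing the flow cell difference, DMSO samples of 1 concentration could not be distinguished from repeat counts of 1 library, so each pair was averaged and counted as 1 (n = 2 concentrations). The labels do not say that samples came from separate cultures. In the fit over the screen, the spread behind the p-values is that between the high and the low dose of each compound, pooled over the compounds. It holds dose effects of the compounds as well as variation that may be only technical.

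HSPA8, the constitutive cytosolic HSP70, was the most abundant member in screen DMSO at 2311 ± 7.25 TPM (SD, n = 2). HSP90AA1 (1765 ± 34.1 TPM) and HSP90AB1 (1683 ± 20.2 TPM), the inducible and the constitutive cytosolic HSP90, came next and were separated by more than the spread between DMSO concentrations. They were followed by the small heat shock protein HSPB1 (1049.99 ± 32.7 TPM), the mitochondrial chaperonin HSPD1 (896 ± 19.8 TPM) and the collagen chaperone SERPINH1 (756 ± 35.1 TPM). HSF1 lay at 94.7 ± 2.01 TPM and HSF2 at 35.3 ± 0.384 TPM. At the other end, HSPB3 (0.995 ± 0.143 TPM), HSPA2 (0.827 ± 0.0831 TPM) and DNAJA4 (0.633 ± 0.167 TPM) stood below 1 TPM in DMSO. A gene was tested where at least 2 of all samples reached 1 TPM, which HSPB3 did in DMSO samples and HSPA2 and DNAJA4 only with the help of treated samples. Processed copies of the HSPA8, HSP90 and chaperonin genes occur across the genome, and how reads matching several of them were shared out is not given in the sources used here.

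HSPA1A and HSPA1B, the near-identical stress-inducible HSP70 genes and the classical readout of the heat shock response, were listed at 0 in all 52 samples. They lie side by side on chromosome 6 (hg19, 31783291 to 31785719 and 31795512 to 31798031). So were 68 of the 85 listed genes within 500 kb of them, housekeeping genes such as CSNK2B and DDX39B included, against 12.6% of all listed genes. Nothing is said here about the expression of either gene, and 40 of the 42 members were tested.

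Heat shock elements, the sites bound by HSF1, were looked for in the RefSeq promoter windows of the members (build GRCh38.p14, 250 bases before to 50 after each listed start). Windows were found for 36 members, all except HSF1, HSPA14, HSPB2, CRYAB, STUB1 and FKBP4. The search was for 3 alternating units, GAANNTTCNNGAA or its reverse complement TTCNNGAANNTTC, which covers both strands. The motif occurred in 8 of the 36 members (22.2%), against 0.608% of all 27305 genes with a window. The stretches with a match that lie upstream of the start and not within 1 kb downstream of another start of the gene are printed here, with the motif in capitals, because the heat shock element is the sequence that HSF1 binds.
HSPA8, chr11:123062159-123062211, minus strand: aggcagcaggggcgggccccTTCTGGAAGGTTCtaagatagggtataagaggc
HSPA8, chr11:123062334-123062386, minus strand: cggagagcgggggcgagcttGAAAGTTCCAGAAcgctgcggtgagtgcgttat
HSP90AA1, chr14:102087100-102087152, minus strand: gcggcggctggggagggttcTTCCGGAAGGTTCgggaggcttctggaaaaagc
CHORDC1, chr11:90223067-90223129, minus strand: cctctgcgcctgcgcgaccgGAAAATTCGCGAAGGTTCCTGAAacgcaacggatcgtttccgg
DNAJB6, chr7:157336853-157336905, plus strand: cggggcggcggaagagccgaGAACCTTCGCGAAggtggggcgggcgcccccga
SERPINH1, chr11:75562157-75562209, plus strand: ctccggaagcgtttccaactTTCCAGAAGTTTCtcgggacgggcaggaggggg
CHORDC1 held 3 overlapping matches in one run. HSP90AB1 and HSPD1 matched downstream of another of their starts and DNAJA1 matched just after its start. No match in the other members says only that these letters were not in these windows.

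The mean change over the 40 members was small for most compounds and hid opposite movements. It is given on the log2(TPM + 1) scale against DMSO of the same title level, the scale of every change below, on which changes of genes with low TPM are understated. In the 4 DMSO samples the mean ran from -0.023 to 0.023. WT161 gave -0.056 at 10 µM and 0.091 at 1 µM, beside all-gene means of 0.049 and 0.007. LAQ824 gave -0.235 and -0.243, beside 0.055 and 0.082. Averaged over doses, bromosporin was lowest at -0.26 and LAQ824 next at -0.239, Cpd50 followed at -0.183, WT161 was at 0.017, and Trametinib was highest at 0.204. These means are descriptions without a test. In bulk RNA, fewer cells of a type and less RNA per cell cannot be told apart.

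**Figure D1:**
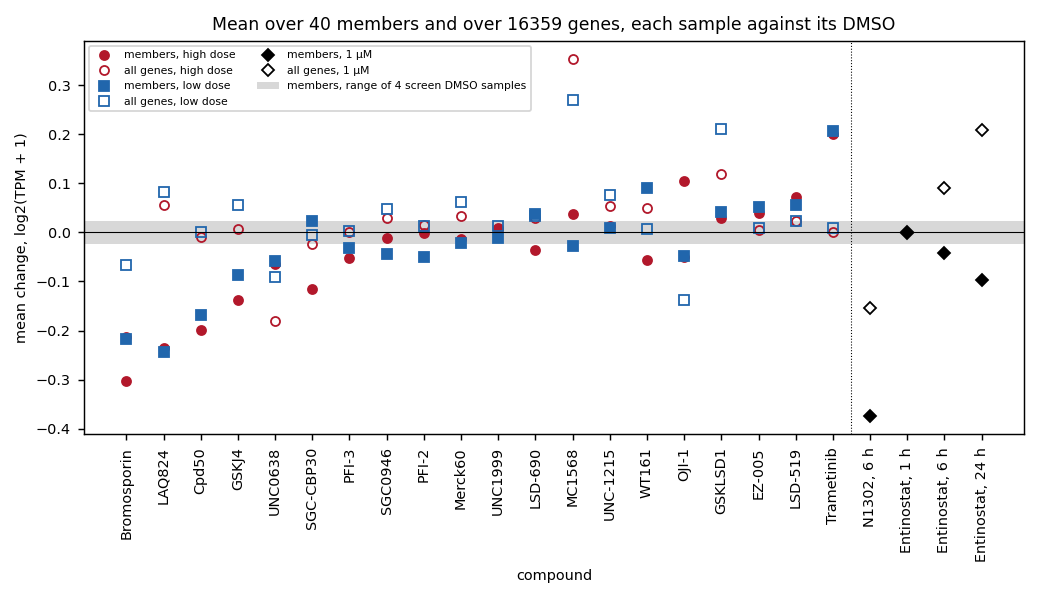
Mean change from matching DMSO on the log2(TPM + 1) scale (vertical axis) for each treated sample, with the 20 screen compounds ordered by their mean and N1302 and entinostat to the right of the dotted line. Filled points are means over the 40 members and open points means over 16359 genes, and the grey band is the range of the 4 screen DMSO samples, -0.023 to 0.023. Bromosporin, LAQ824 and Cpd50 sit lowest in the screen and Trametinib highest.

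WT161 was taken first. Of the 6 small heat shock proteins 4 were lower, with HSPB8 and HSPB3 not called. Of the 8 J-domain proteins DNAJB1, DNAJB6 and DNAJA4 were higher, DNAJC2 and DNAJB2 lower and 3 not called. BAG3 was higher, and BAG1 and BAG2 were not called. With limma across the screen, 8 of the 40 members were higher and 8 lower than DMSO at an adjusted p below 0.05, beside 18.4% and 15.0% of all genes tested. These shares of members are near that background, so the number of calls is no result about chaperones. Within flow cell C5JW5ACXX, where WT161 was set against the other 13 compounds, 9 members were higher and 6 lower (20.8% and 15.5% of all genes). Which members moved, and to which side, is described next by role. Values are TPM, with DMSO given as the 0.2% pair and then the 0.1% pair, and each compound as the high and then the low dose.

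All 4 small heat shock proteins that were called under WT161 fell, and 2 of the 6 were not called. HSPB1, an abundant chaperone of actin and of unfolded protein, was at 1048, 1006, 1109 and 1037 TPM in DMSO and at 557 and 659 under WT161. Both treated samples lay below all 4 DMSO samples, with a change of -0.79 ± 0.12 (SE, limma adjusted p = 3.52e-05). MC1568 gave 911 and 836 TPM, Merck60 944 and 886, and OJI-1 1057 and 958, so that all 6 of these samples lay above the WT161 samples. HSPB2, a muscle chaperone that binds the kinase DMPK, was at 129, 129, 152 and 144.1 TPM in DMSO and at 33.6 and 104 under WT161 (-1.21 ± 0.41, limma adjusted p = 0.0273). The high dose carried most of this change. MC1568 gave 125 and 134 TPM, Merck60 116 and 127, and OJI-1 137 and 117. CRYAB, the αB-crystallin of lens and muscle, was at 37.3, 33.5, 39.2 and 35.3 TPM in DMSO and at 18.6 and 26.6 under WT161 (-0.68 ± 0.23, limma adjusted p = 0.0267), against 38.5 and 35.5 under MC1568, 48.6 and 41.8 under Merck60 and 53.4 and 45.3 under OJI-1. The WT161 samples again lay below every other sample of this comparison. HSPB7, a small heat shock protein of heart and skeletal muscle, was at 7.63, 8.01, 10.1 and 8.72 TPM in DMSO and at 2.91 and 3.04 under WT161, on 47 and 35 reads (-1.27 ± 0.32, limma adjusted p = 0.00345). It was at 11.2 and 12.9 TPM under MC1568, 12.4 and 11.1 under Merck60 and 12.2 and 7.23 under OJI-1. HSPB8, the partner of BAG3 in the disposal of aggregates, was at 7.5 and 11.4 TPM under WT161 against 6.23 to 7.34 in DMSO and was not called, nor was HSPB3. HSPB2 and CRYAB are neighbours on chromosome 11 on opposite strands, and in the tables (hg19) their bodies, 111783460 to 111784817 and 111779344 to 111783937, overlap. Whether counting used the strand is not given in the sources used here, so reads of the overlap cannot be assigned. Within flow cell C5JW5ACXX, against the other compounds, HSPB1 (-0.54), CRYAB (-0.83) and HSPB7 (-1.35) were called and HSPB2 was not (-0.92 ± 0.36, limma adjusted p = 0.0603). The call of HSPB2 was also lost with its own samples only (limma adjusted p = 0.0752) and with no filter (limma adjusted p = 0.0505).

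Markers of the muscle lineage and of FP-RMS moved in the same samples. The list held 7 genes (MYOD1, MYOG, DES, FGFR4, TFAP2B, ALK and NOS1), none of them at 0 in any sample, and summed to between 2642 and 2756 TPM in screen DMSO. Under WT161 the sum was 1189 and 1844 TPM, and 6 of the 7 lay below all DMSO samples at both doses. MYOG, a transcription factor of muscle differentiation, was at 572 to 587 TPM in DMSO and at 70.8 and 254 under WT161, and MYOD1, its upstream relative, at 640 to 648 and at 106 and 372. The exception was DES, the intermediate filament protein of muscle, at 413 to 443 TPM in DMSO and at 427 and 461 under WT161. Values below DMSO were common in the screen. Under OJI-1, LSD-519, PFI-2, UNC0638 and UNC1999, 5 of the 7 markers lay below all DMSO samples at both doses. MYOD1 did so in every treated screen sample, the highest being 592 TPM (EZ-005 at the high dose). HSPB2, HSPB7 and CRYAB are themselves muscle-enriched, and the part of the lineage markers in their changes was not tested.

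Among the J-domain proteins, 3 of 8 rose and 2 fell. DNAJB1, the heat-inducible J-protein that recruits HSP70 to aggregates, was at 137, 139, 137 and 137 TPM in DMSO and at 256 and 179 under WT161 (0.64 ± 0.12, limma adjusted p = 0.000314). MC1568 gave 135 and 116 TPM, Merck60 132 and 136, and OJI-1 159 and 146. Both WT161 samples stood above all of these, the high dose furthest. DNAJB6 keeps polyglutamine protein from aggregating. It was at 162, 147, 162 and 147 TPM in DMSO and at 263 and 233 under WT161 (0.68 ± 0.16, limma adjusted p = 0.00174). The DMSO values pair by flow cell, 162 on C4JM1ACXX and 147 on H144EBGXX, and both lie far below the treated values. MC1568 gave 145 and 126 TPM, Merck60 158 and 157, and OJI-1 168 and 136, so WT161 again stood above all 6 samples. DNAJA4, an inducible member of the DNAJA family, rose from 0.621, 0.88, 0.256 and 0.772 TPM to 2.36 and 1.57 (0.87 ± 0.30, limma adjusted p = 0.028), on 42 and 20 reads, and the other 3 inhibitors gave 0.115 to 1.36 TPM. Its call was lost with a pseudocount of 0.1 (limma adjusted p = 0.07) and without the first 0.1% DMSO sample (limma adjusted p = 0.06). DNAJA4 reached 1 TPM in no DMSO sample and passed the filter only through treated samples, WT161 and LAQ824 among them. The calls of DNAJA4, here and below, are therefore descriptions and no support. DNAJC2, a ribosome-associated J-protein also named MPP11, was at 109, 119, 106 and 119.9 TPM in DMSO and at 53.3 and 101 under WT161 (-0.62 ± 0.23, limma adjusted p = 0.0393). The low dose lay just below the DMSO values, and within the flow cell DNAJC2 was not called (-0.51, limma adjusted p = 0.0516), nor in 4 other alternatives (limma adjusted p from 0.058 to 0.1). DNAJB2, a neuronal J-protein that sorts clients to the proteasome, fell by 0.41 ± 0.10 (SE, limma adjusted p = 0.00219). DNAJA1, DNAJB4 and DNAJB5 were not called.

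BAG3, the co-chaperone that couples HSP70 to small heat shock proteins and autophagy, was at 40.1, 37.2, 39.6 and 34.5 TPM in DMSO and at 65.1 and 72.0 under WT161 (0.84 ± 0.24, limma adjusted p = 0.00888). MC1568 gave 52.3 and 36.8 TPM, Merck60 34.7 and 43.8, and OJI-1 47.9 and 35.8. The WT161 samples were the highest of these, and the low dose was no lower than the high dose. BAG1 and BAG2 were not called against DMSO.

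The HSP70 genes themselves were not called under WT161. HSPA8 was at 2312, 2321, 2298 and 2315 TPM in DMSO and at 3110.1 and 2325 under WT161, with the low dose at the DMSO level (mean change 0.22 ± 0.22, limma adjusted p = 0.475). Merck60 gave 2487 and 2361 TPM, OJI-1 2666 and 2424, and MC1568 1893 and 1852. The spread between doses is wide for this gene, with a 95% interval of the change from -0.23 to 0.66. HSPH1, the inducible HSP110 that acts as exchange factor for HSP70, was at 285, 298, 285 and 295 TPM in DMSO and at 363 and 408 under WT161 (0.40 ± 0.10, limma adjusted p = 0.00356). OJI-1 came near with 344 and 359 TPM, while Merck60 gave 252 and 280.0 and MC1568 259 and 245. SGC-CBP30 (363 and 354 TPM) and Trametinib (368 and 366 TPM), on the flow cell of WT161, came near as well. HSF1 was at 94.6, 92.0, 93.3 and 99.0 TPM in DMSO and at 77.0 and 83.2 under WT161 (-0.24 ± 0.13, limma adjusted p = 0.17). The mRNA level of HSF1 does not show its activity, which is set on the protein.

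Of the HSP90 genes, HSP90AB1 rose a little. It was at 1699.8, 1696, 1679 and 1659 TPM in DMSO and at 2113 and 1968 under WT161 (0.28 ± 0.06, limma adjusted p = 0.00107), but Merck60 (2071 and 1942) and OJI-1 (1914 and 2080.4), on the same flow cell, reached like values. HSP90AA1 was at 1759, 1820.3, 1701 and 1781 TPM in DMSO and at 2181 and 1871 under WT161, and was not called (0.19 ± 0.09, limma adjusted p = 0.0837). MC1568 gave 1689 and 1668 TPM, Merck60 1744 and 1760.0, and OJI-1 1997 and 2169. The HSP90 co-chaperones STIP1, which bridges HSP70 and HSP90, and CDC37, which brings kinases to HSP90, rose by 0.36 ± 0.10 (limma adjusted p = 0.0108) and 0.26 ± 0.09 (limma adjusted p = 0.0323). The call of CDC37 was lost with median-ratio scaling (limma adjusted p = 0.0829) and without the first 0.2% DMSO sample (limma adjusted p = 0.0511). STUB1, the ubiquitin ligase CHIP, was at 69.0, 75.7, 63.1 and 72.6 TPM in DMSO and at 100.3 and 98.4 under WT161, and missed the threshold against DMSO (0.50 ± 0.20, limma adjusted p = 0.0526), while within the flow cell it was called with 1.01. AHSA1, CHORDC1, FKBP4 and PTGES3 were not called either.

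The mitochondrial chaperonin pair parted. HSPE1, the co-chaperonin, was at 143.6, 184, 149 and 178 TPM in DMSO, lower on flow cell C4JM1ACXX than on H144EBGXX at both concentrations, and at 101 and 138 under WT161 (-0.46 ± 0.16, limma adjusted p = 0.0263). Within flow cell C5JW5ACXX its change was -0.24 and not called (limma adjusted p = 0.118), and 4 other alternatives lost the call as well (limma adjusted p from 0.0609 to 0.0876). HSPD1 was at 877, 887, 902 and 918 TPM in DMSO and at 879 and 988 under WT161 (0.06 ± 0.10, limma adjusted p = 0.704). The bodies of both genes overlap at their ends on chromosome 2, in the same way as HSPB2 and CRYAB. SERPINH1, the procollagen chaperone of the endoplasmic reticulum, was at 742, 721, 776 and 787 TPM in DMSO and at 491 and 541 under WT161 (-0.55 ± 0.12, limma adjusted p = 0.000947). Merck60 (579.7 and 626 TPM) and OJI-1 (701 and 492) were also below DMSO while MC1568 (1212 and 1032) was above.

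**Figure D2:**
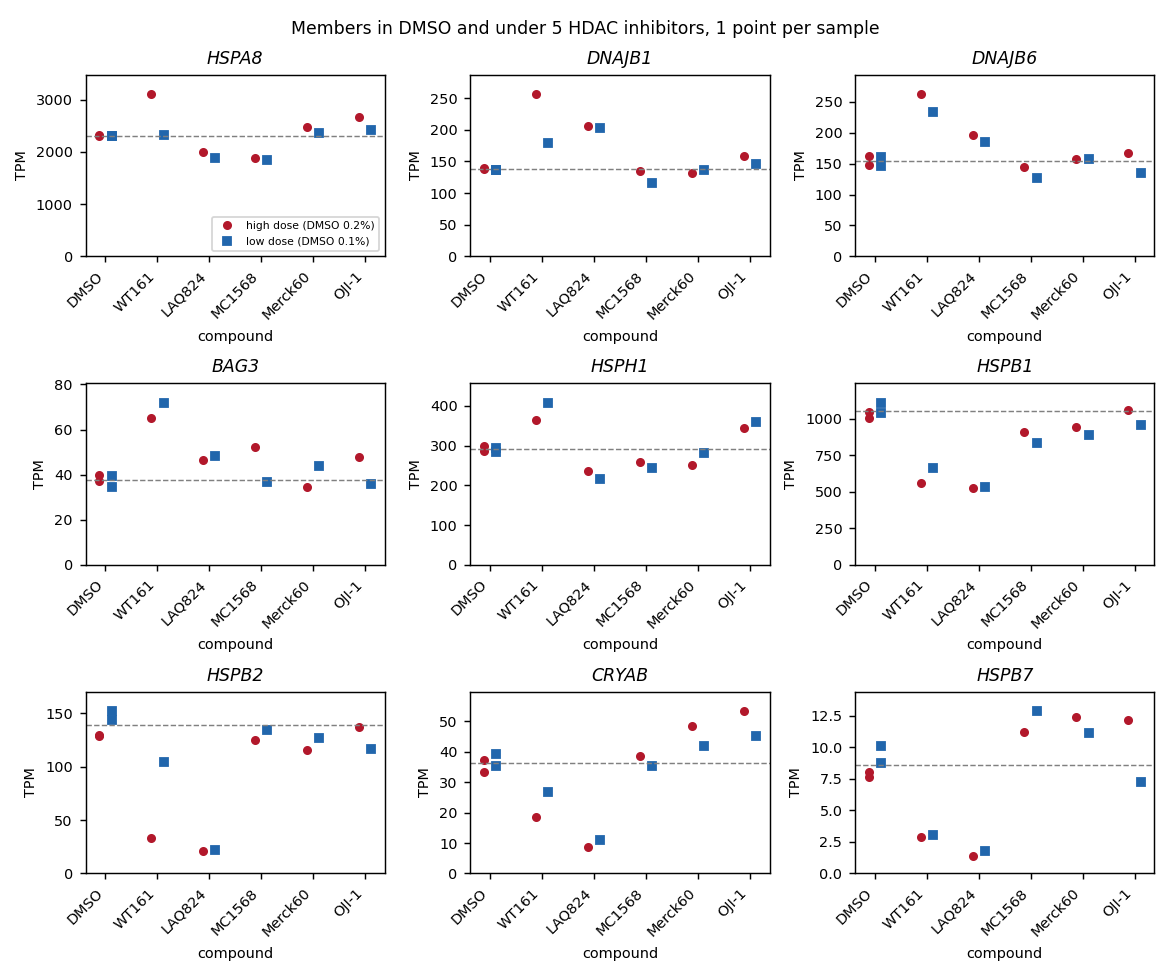
TPM of 9 members (vertical axes, from 0) in screen DMSO and under the 5 HDAC inhibitors of the screen (horizontal axes), 1 point per sample, with red circles for the high dose or 0.2% DMSO, blue squares for the low dose or 0.1% DMSO, and a dashed line at the DMSO mean. WT161 stands above MC1568, Merck60 and OJI-1 for DNAJB1, DNAJB6 and BAG3, while its low dose (179 TPM) is below LAQ824 (206 and 203) for DNAJB1, and both WT161 and LAQ824 stand below those 3 compounds for HSPB1, CRYAB and HSPB7.

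WT161 was then set against the mean of MC1568, Merck60 and OJI-1, the HDAC inhibitors tested at the same 10 and 1 µM. Of the 6 small heat shock proteins 4 were lower and 2 not called, of the 8 J-domain proteins 3 were higher and 2 lower, and of the 3 BAG proteins BAG1 and BAG3 were higher and BAG2 lower. In this contrast 10 of 40 members were higher and 9 lower under WT161, beside 19.6% and 22.6% of all genes, so WT161 differed from these compounds across the transcriptome, and the shares of members are near the background. HSPB7 differed by -1.60 ± 0.26 (SE, limma adjusted p = 3.64e-05), HSPB2 by -1.07 ± 0.34 (limma adjusted p = 0.0134), CRYAB by -0.93 ± 0.19 (limma adjusted p = 0.000384) and HSPB1 by -0.62 ± 0.10 (limma adjusted p = 3.05e-05). On the higher side stood STUB1 (0.93 ± 0.16, limma adjusted p = 7.57e-05), DNAJA4 (0.81 ± 0.24, limma adjusted p = 0.00946), DNAJB6 (0.74 ± 0.13, limma adjusted p = 6.55e-05), BAG3 (0.71 ± 0.20, limma adjusted p = 0.00516) and DNAJB1 (0.65 ± 0.10, limma adjusted p = 1.76e-05). For STUB1 the difference came from both sides, since Merck60 gave 38.7 and 44.6 TPM, OJI-1 58.0 and 44.8, all below DMSO, and MC1568 63.8 and 67.8. Further members higher under WT161 were CDC37 (0.47), BAG1 (0.46), HSPH1 (0.43), STIP1 (0.35) and HSP90AB1 (0.16), and further members lower were SERPINH1 (-0.51), DNAJC2 (-0.49), BAG2 (-0.44), DNAJB2 (-0.25) and PTGES3, the HSP90 co-chaperone p23 (-0.21).

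Not called in this contrast were HSF1, with a 95% interval of the difference from -0.19 to 0.26, HSPD1 (-0.16 to 0.17), HSPE1 (-0.48 to 0.05), HSPA8 (-0.11 to 0.62) and HSP90AA1 (-0.00247 to 0.29). The widest of these intervals was that of HSPA8, and none of them shows that the compounds acted alike. With Merck60 and OJI-1 alone, which shared the flow cell of WT161, 16 members were called, beside 22.8% of all genes higher and 17.2% lower. There the difference was 1.09 for STUB1, 0.68 for DNAJB6, 0.58 for DNAJB1, 0.75 for BAG3, -1.54 for HSPB7 and -1.05 for CRYAB, all called. SERPINH1 (-0.21, limma adjusted p = 0.112), HSP90AB1 (0.03, limma adjusted p = 0.71) and BAG1 (0.29, limma adjusted p = 0.236) were not, so their calls rested on MC1568. HSPE1, by contrast, was called without MC1568 (-0.34, limma adjusted p = 0.0457). Without the 3 libraries of mostly even counts, Merck60 at the high dose among them, 19 members were called as well, a count given here without the share of all genes.

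**Figure D3:**
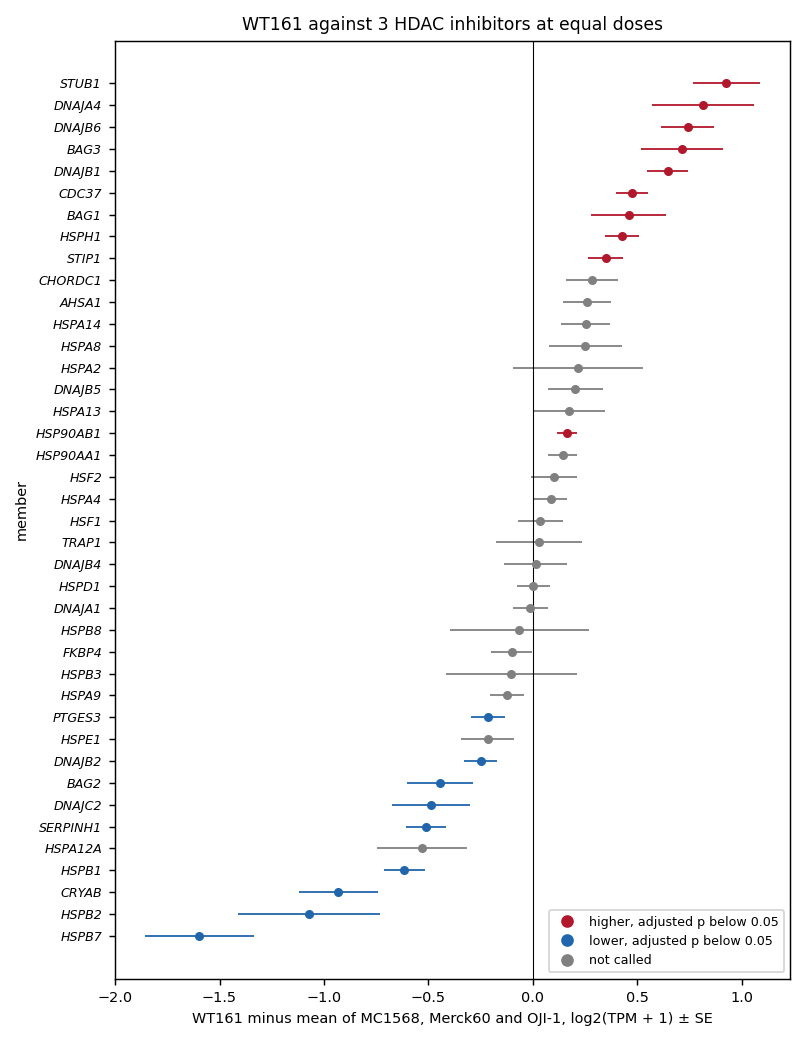
Difference between WT161 and the mean of MC1568, Merck60 and OJI-1 for each of the 40 members (horizontal axis, log2(TPM + 1), bars ± SE from limma), ordered by size. The 10 members called higher are red, the 9 called lower blue and the others grey, with STUB1 at 0.93 and HSPB7 at -1.60 at the ends.

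Each dose of WT161 was also set against its DMSO, with a single sample assumed to vary like the dose pairs of the other compounds. At 10 µM, 3 members were higher and 6 lower (15.6% and 12.8% of all genes), and at 1 µM none was higher and 1 lower (3.34% and 2.33%). DNAJB1 changed by 0.89 at 10 µM, DNAJB6 by 0.76 and HSP90AB1 by 0.32, while HSPB2 changed by -1.91, DNAJC2 by -1.08, CRYAB by -0.89, HSPB1 by -0.88, SERPINH1 by -0.57 and PTGES3 by -0.43. HSPB1 was the member called at 1 µM (-0.70 ± 0.17, limma adjusted p = 0.0146). For the difference between doses, limma called 0 of 40 members, beside 0.159% of all genes higher and 0.165% lower, and 2 members (PTGES3 and DNAJB1) and 9.36% of all genes had an unadjusted p below 0.05, so no dose effect on a member could be established with 1 sample per dose.

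LAQ824, at 5 and 0.5 µM, is given side by side with WT161, since doses differ, and no contrast between LAQ824 alone and WT161 was run. LAQ824 entered only an alternative of the equal-dose contrast, as a further comparison compound. It lowered 5 of the 6 small heat shock proteins and, by smaller amounts, several genes of the HSP70 and HSP90 systems. With limma, 6 members were higher and 16 lower, beside 28.9% and 25.2% of all genes. HSPB2 was at 20.9 and 22.3 TPM (-2.63 ± 0.41, limma adjusted p = 1.27e-05), HSPB7 at 1.42 and 1.77 (-1.89 ± 0.32, limma adjusted p = 2.7e-05), CRYAB at 8.68 and 11.1 (-1.78 ± 0.23, limma adjusted p = 1.12e-06), HSPB8 at 2.19 and 2.31 (-1.23 ± 0.41, limma adjusted p = 0.013) and HSPB1 at 527 and 529.8 (-0.99 ± 0.12, limma adjusted p = 5.03e-07). All of these lay below the 4 DMSO samples, and the doses hardly differed. The sum of the 7 lineage markers was 1044 and 1122 TPM, with all 7 below every DMSO sample, MYOG at 49.2 and 51.0, and their part in these changes was not tested. DNAJC2, at 52.1 and 55.7 TPM, fell by 1.06. Smaller falls were called for FKBP4 (-0.64), an immunophilin of HSP90, DNAJB4 (-0.54), HSPA9 (-0.51), the mitochondrial HSP70, PTGES3 (-0.49), SERPINH1 (-0.47), DNAJB2 (-0.44), HSPD1 (-0.43) and HSPA4 (-0.41).

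HSP90AA1 was at 1402 and 1304 TPM under LAQ824 (-0.38 ± 0.09, limma adjusted p = 0.000594) and HSPH1 at 235 and 217 (-0.36 ± 0.10, limma adjusted p = 0.00412) against DMSO. HSPA8 was at 2009 and 1889 TPM and was not called (-0.25 ± 0.22, limma adjusted p = 0.351), nor was HSF1 at 83.0 and 93.5, HSP90AB1 at 1761 and 1769.5, HSPE1 at 138 and 124 or BAG3 at 46.7 and 48.2. Higher members were HSPA2, a testis-enriched HSP70 (4.86 and 4.71 TPM, 1.67 ± 0.38, limma adjusted p = 0.000744), DNAJA4 (4.08 and 3.51 TPM, 1.57 ± 0.30, limma adjusted p = 0.000112) and STUB1 (169.9 and 179 TPM, 1.31 ± 0.20, limma adjusted p = 7.17e-06). HSPA2 and DNAJA4 passed the filter only with the help of treated samples, those of LAQ824 among them, so their calls are descriptions. CDC37 (369.9 and 427 TPM, 0.76), TRAP1, the mitochondrial HSP90 (254 and 267 TPM, 0.64), and DNAJB1 (206 and 203 TPM, 0.57) were higher too. Against the 2 DMSO samples of its own flow cell, 30 members were called under LAQ824, beside 34.1% of all genes higher and 31.6% lower, with HSPB2 at -2.61 and STUB1 at 1.22.

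Under MC1568 the all-gene median was 0.26, and 3 of 40 members were higher and 5 lower (20.6% and 3.34% of all genes). SERPINH1 (0.56 ± 0.12, limma adjusted p = 0.00141), HSPA12A, a distant HSP70 relative (0.88), and HSPB8 (23.1 and 13.1 TPM, 1.27 ± 0.41, limma adjusted p = 0.0252) rose, and HSPE1 (-0.50), DNAJA1 (-0.45), HSPA4 (-0.45), HSPA9 (-0.33) and HSPD1 (-0.29) fell. Within its flow cell 6 members were higher and 10 lower under MC1568, beside 33.6% and 8.6% of all genes. No member (0 of 40) was called under Merck60 or OJI-1 with limma, beside 0.0245% and 0.116% of all genes higher and lower under Merck60 and 0.0978% and 0.11% under OJI-1. At an unadjusted p below 0.05 the numbers of members were 9 under Merck60 and 8 under OJI-1, beside 7.58% and 8.14% of all genes, and with limma-voom on whole reads 1 and 0 were called, beside 0.538% and 0.183%.

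**Figure D4:**
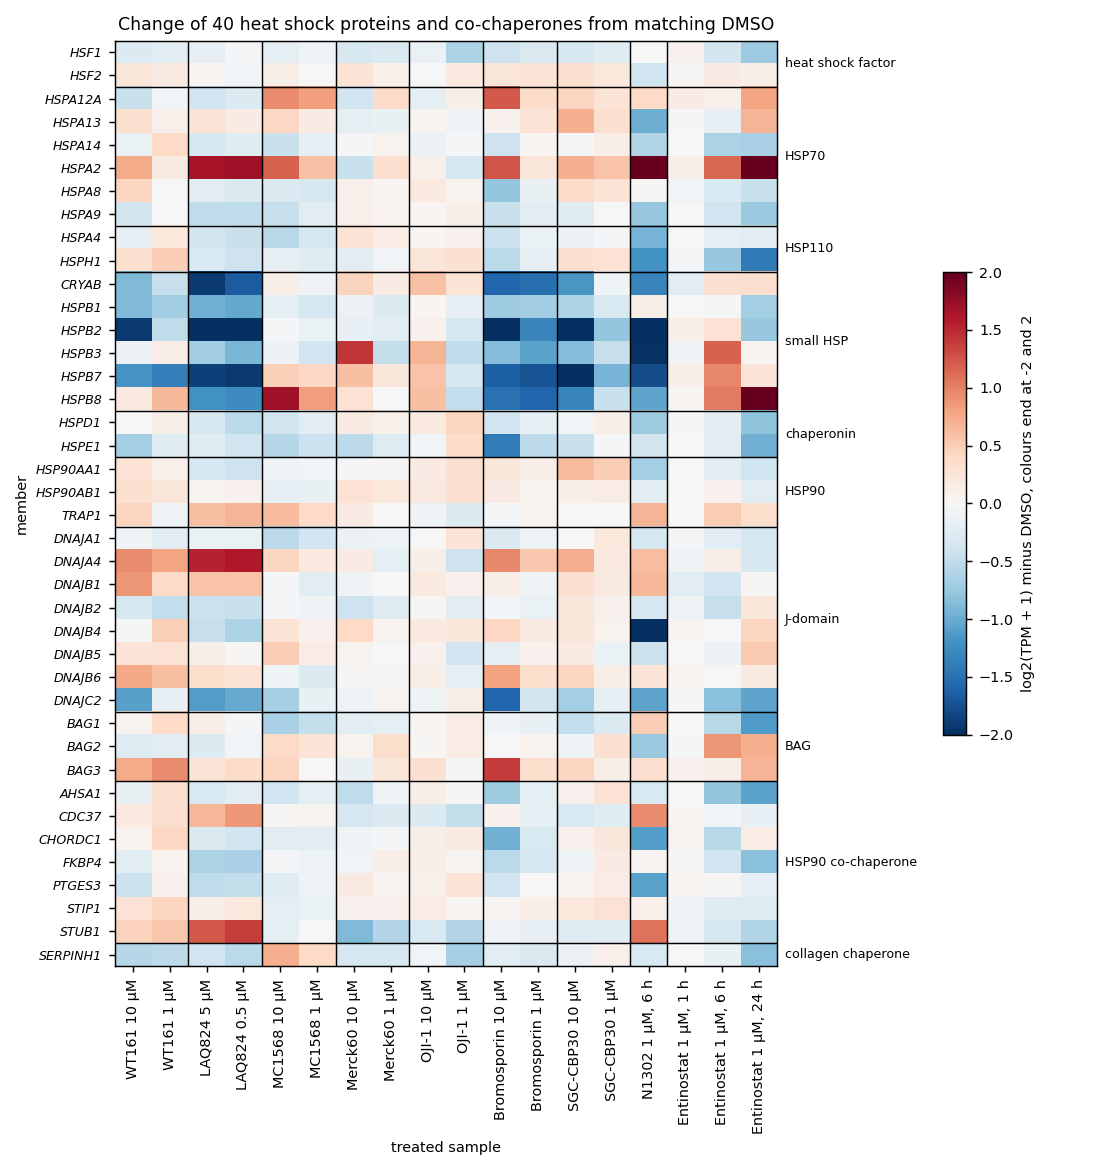
Change of the 40 tested members (rows, grouped by role) from matching DMSO in 18 treated samples (columns), as log2(TPM + 1), red above and blue below DMSO, with colours ending at -2 and 2. HSPB2, HSPB7 and CRYAB are blue under WT161, LAQ824, bromosporin, N1302 and the high dose of SGC-CBP30. HSPA2 is red under LAQ824, N1302 and entinostat at 24 h.

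Of the 6 small heat shock proteins, 6 were called lower under bromosporin and 2 under SGC-CBP30, and the difference between these bromodomain compounds was not tested. Under bromosporin 3 members were higher and 16 lower, beside 13.1% and 24.2% of all genes, and all 6 small heat shock proteins were called lower, from HSPB2 (15.8 and 59.0 TPM, -2.13 ± 0.41, limma adjusted p = 0.000435) and HSPB7 (-1.68) to CRYAB (11.1 and 12.5 TPM, -1.54), HSPB8 (-1.54), HSPB3 (-0.97) and HSPB1 (625 and 659 TPM, -0.71). The library of bromosporin at 10 µM is among those with mostly even counts, and without the 3 such libraries 4 members were called, beside 8.8% of all genes, namely HSPB1, HSPB7, CRYAB and HSPE1. The other 15 calls, those of HSPB2 (limma adjusted p = 0.0785), HSPB8 (limma adjusted p = 0.0987) and HSPB3 (limma adjusted p = 0.173) among them, were then lost. The lineage markers summed to 1288 and 1868 TPM under bromosporin and to 1225 and 2042 under SGC-CBP30, all 7 below every DMSO sample under both, and their part was not tested. HSPB3 was listed at 0 in both bromosporin samples. Within the flow cell 20 members were called (14.5% of all genes higher, 27.7% lower). HSPE1 (-0.96), CHORDC1 (-0.64), AHSA1, the activator of the HSP90 ATPase (-0.44), FKBP4 (-0.43), HSPH1 (-0.36), HSF1 (-0.35), HSPA9 (-0.34), HSPA4 (-0.28) and HSPD1 (-0.28) were lower, as was DNAJC2 (-0.98). BAG3, at 104 and 47.2 TPM, rose by 0.87 (0.39 and not called without those libraries), HSPA12A by 0.80 and DNAJB6 by 0.57. Under SGC-CBP30, HSPB7 (-1.50) and HSPB1 (-0.46) fell and HSP90AA1 rose (2775 and 2456 TPM, 0.56 ± 0.09, limma adjusted p = 0.000441), which is 1 member higher and 2 lower beside 0.996% and 3.17% of all genes. HSPB2 (31.8 and 85.8 TPM), CRYAB (15.2 and 35.1) and HSPB8 (2.01 and 4.80) were not called, though their high-dose values lay below all DMSO samples.

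Among the other 13 compounds, 27 calls were made in 520 tests of members (5.19%), beside 2.36% over all genes, and 8 of the 13 compounds had no member called. For these 8 limma called 0.0122% of all genes under GSKJ4, 0.0428% under PFI-3 and under UNC-1215, 0.0795% under UNC1999, 0.0917% under EZ-005, 0.208% under SGC0946, 0.672% under LSD-519 and 3.91% under GSKLSD1, and from 0 to 8 members had an unadjusted p below 0.05, beside 2.02% (PFI-3) to 14.6% (GSKLSD1) of all genes. The 8 members were those under GSKJ4, beside 2.64% of all genes. Cpd50 lowered 10 members and raised 2, beside 2.74% and 3.67% of all genes, and the lowered members were cytosolic chaperones of the HSP70 and HSP90 system. HSPH1 fell from 285 to 298 TPM in DMSO to 117 and 130.4 (-1.23 ± 0.10, limma adjusted p = 6.37e-09), CHORDC1, a HSP90 co-chaperone, by 1.02 ± 0.15 (limma adjusted p = 5.23e-05), HSPA8 to 1296 and 1363 TPM (-0.80 ± 0.22, limma adjusted p = 0.0244) and HSP90AA1 to 1145 and 1219 TPM (-0.58 ± 0.09, limma adjusted p = 5.67e-05). FKBP4 (-0.63), AHSA1 (-0.61), DNAJA1 (-0.60), HSPA4 (-0.58), DNAJB1 (-0.56) and STIP1 (-0.43) fell too, whereas DNAJB2 (0.44) and HSPB7 (1.43) rose. Of these, HSPA8, HSP90AA1, CHORDC1 and DNAJA1 are among the 8 members with a match to the heat shock element motif, that of DNAJA1 after its start. HSPH1, AHSA1, HSPA4, DNAJB1 and STIP1 fell without a match in their windows, and FKBP4 had no window. The other 4 members with a match, HSP90AB1, DNAJB6, HSPD1 and SERPINH1, were not called under Cpd50. A link between the motif and the changes was not tested for any compound. Against the 2 DMSO samples of its own flow cell Cpd50 had 11 calls among the members (4.31% of all genes higher, 3.9% lower).

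Trametinib raised 4 of the 6 small heat shock proteins. HSPB3 went from 0.388, 1.4, 1.25 and 0.942 TPM in DMSO to 14.1 and 11.7 (2.82 ± 0.38, limma adjusted p = 6.9e-05), HSPB7 to 23.2 and 21.3 (1.28 ± 0.32, limma adjusted p = 0.0249), CRYAB to 79.8 and 85.8 (1.17 ± 0.23, limma adjusted p = 0.00431) and HSPB1 to 1561 and 1309.9 (0.45 ± 0.12, limma adjusted p = 0.0432). Both Trametinib samples lay above all DMSO samples for each of these genes. The lineage markers summed to 3282 and 3165 TPM, above DMSO, with MYOG at 1287 and 1282 and DES at 768 and 720, while MYOD1 (429 and 358) and FGFR4 (638 and 629) were below every DMSO sample, and their part was not tested. MYOD1 was below DMSO in every treated screen sample. DNAJB4 (0.66) and DNAJB2 (0.41) rose and CDC37 (-0.47) fell, which makes 6 members higher and 1 lower beside 1.45% and 1.57% of all genes. Within flow cell C5JW5ACXX 5 members were called, all higher (2.54% of all genes higher, 1.72% lower), HSPB1 with 0.79. UNC0638 lowered TRAP1 (-1.15), STUB1 (-0.93), HSPB1 (-0.39), CDC37 (-0.36) and HSPH1 (-0.30), beside 11.1% of all genes lower and 2.87% higher, and within its flow cell 1 member was higher and 8 lower (3.31% and 15.0%). The high dose of UNC0638 carried most of the change for TRAP1 (42.9 and then 128 TPM) and STUB1 (24.5 and then 53.2). Under LSD-690 STUB1 (-0.81) and CDC37 (-0.42) were called lower, beside 0.403% of all genes lower and 1.16% higher. Under PFI-2 HSPB1 (-0.62) was called lower, beside 0.428% and 0.196%. Both compounds were on flow cell C5JW5ACXX, so compound and flow cell cannot be told apart for these calls. STUB1 was at 36.4 and 42.9 TPM under LSD-690, and Merck60, on the same flow cell, gave 38.7 and 44.6. The call for HSPB1 under PFI-2 was lost without the 3 libraries of mostly even counts. Only BAG1, BAG2, DNAJB5, HSF2, HSPA13 and HSPA14 were called under none of the 20 compounds.

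N1302, a cyclic tetrapeptide HDAC inhibitor, had 1 sample and 1 DMSO sample, so its differences have no replicate check. Its mean over the members was -0.375, beside -0.154 over all genes, and 2 members were at least 2-fold higher and 10 at least 2-fold lower, beside 11.6% and 19.3% of all genes. Scaling by the median ratio over genes of at least 10 TPM moved the N1302 sample by 0.37 and its DMSO sample by 0.04, which brought the mean over the members to -0.058. The lowest were HSPB2 (159 TPM in DMSO to 33.1, -2.23), DNAJB4 (233 to 56.6, -2.02), HSPB3 (9.39 to 1.63, on 74 and 9 reads, -1.98), HSPB7 (19.3 to 4.97, -1.77) and CRYAB (71.1 to 28.0, -1.31). HSPB1 was at 586 TPM in DMSO and 638 under N1302, and so did not lie on the same side. The sum of the lineage markers was 1563 TPM in DMSO and 1156 under N1302, with MYOG at 391 and 32.2, and its part was not tested. DES (514 TPM in DMSO and 671 under N1302) and FGFR4 (389 and 399) were higher, and the other markers were lower. HSPA2 (0.323 to 4.62 TPM, on 9 and 90 reads, 2.09), STUB1 (50.2 to 108, 1.09), CDC37 (157 to 302, 0.94), TRAP1 (110.5 to 177, 0.67) and DNAJB1 (153 to 243, 0.66) were highest. HSPA8 was at 4299 and 4370.0 TPM, HSP90AA1 at 2764 and 1719, HSPH1 at 524 and 227, HSPD1 at 1351 and 827, and BAG3 at 41.5 and 52.7.

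Entinostat, a benzamide HDAC inhibitor, was followed over time at 1 sample per point. At 1 h the largest change of a member was -0.23 (CRYAB), and none reached 2-fold, beside 0.66% and 0.581% of all genes higher and lower. At 6 h 3 members were at least 2-fold higher and none lower (5.13% and 0.947%), and at 24 h 2 were higher and 4 lower (16.4% and 6.06%). HSPA2 went from 0.657 TPM in DMSO to 2.66 at 6 h and from 0.726 to 17.3 at 24 h, on 570 reads, and HSPB8 from 2.82 to 6.84 and from 2.63 to 13.6. The lineage markers summed to 1659 TPM against 1981 in DMSO at 6 h and to 953 against 1903 at 24 h, and their part was not tested. DES went the other way, with 329 TPM against 260 in DMSO at 6 h and 328 against 243 at 24 h. NOS1 did so at 6 h, with 10.3 against 8.04 TPM. HSPB3 (1.18), HSPB7 (5.32 to 11.2 TPM, 0.95) and BAG2 (0.88) were also among the highest at 6 h. HSPH1, by contrast, stood at 248 TPM against 253 in DMSO at 1 h, 212 against 359 at 6 h and 116 against 312 at 24 h. AHSA1 showed the same order with 279.8 against 278, 194 against 335 and 143 against 303 TPM. DNAJC2 (-0.84), HSPA14 (-0.64) and BAG1 (-0.56) completed the lowest 5 at 6 h. DNAJB1 was at 59.9 against 69.6, 90.9 against 119 and 108 against 107 TPM, and HSPA8 at 1851 against 1918, 2401 against 2951 and 1808 against 2453.

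**Figure D5:**
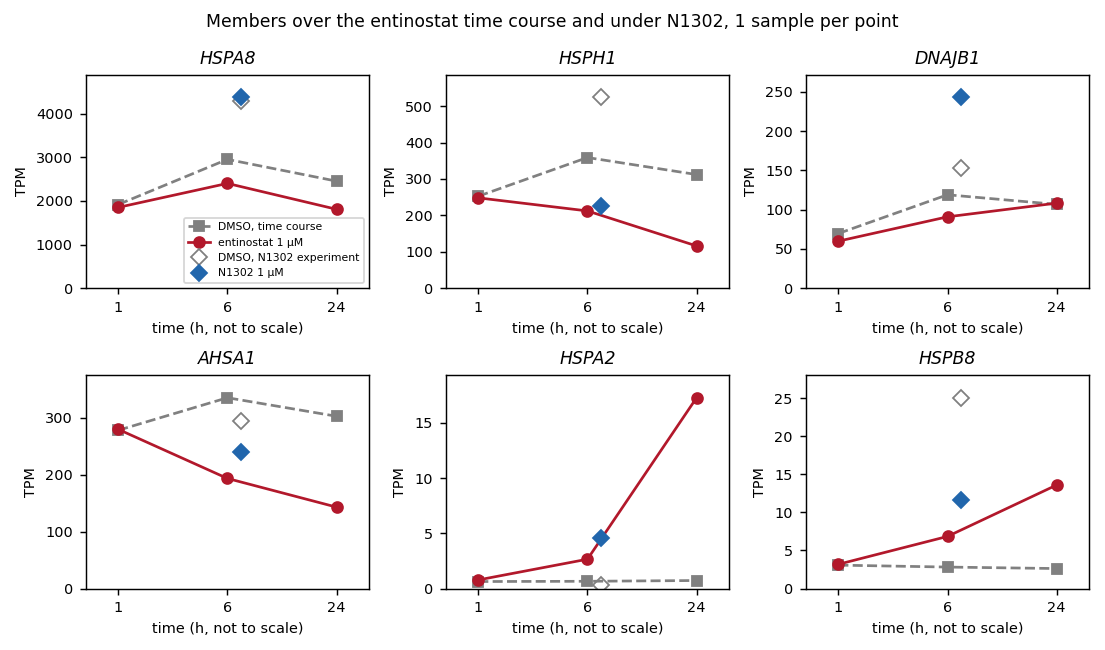
TPM of 6 members (vertical axes, from 0) at 1, 6 and 24 h (horizontal axes, not to scale) under 1 µM entinostat (red) and DMSO (grey squares), with N1302 (blue diamonds) and its DMSO sample (open diamonds) beside the 6 h point, 1 sample per point. HSPH1 and AHSA1 lie below DMSO at 6 and 24 h while HSPA2 and HSPB8 reach 17.3 and 13.6 TPM at 24 h.

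For context, 37 further proteostasis genes that are not members passed the filter. Under WT161 15 of them were higher and 6 lower (40.5% and 16.2%), beside 18.4% and 15.0% of all genes. The chaperones of the endoplasmic reticulum made up the largest group, with 5 of 6 higher and a median of 0.68, beside an all-gene median of 0.025. HSPA5, the ER HSP70 also called BiP, rose by 1.02 ± 0.23 (SE, limma adjusted p = 0.00161), and the ER J-protein DNAJB11 differed from the 3 equal-dose inhibitors by 0.83 ± 0.08 (limma adjusted p = 3.23e-08). PPP5C, a phosphatase of the HSP90 machinery, fell by 1.05 ± 0.22 (limma adjusted p = 0.000826), and HSPA12B, below 1 TPM in DMSO, rose by 1.05 ± 0.20 (limma adjusted p = 0.00032). Of the 8 subunits of the cytosolic chaperonin TRiC, 2 rose and 3 fell. Under LAQ824 14 of the 37 genes were higher and 10 lower (37.8% and 27.0%), near the 28.9% and 25.2% of all genes. There 4 of 6 ER chaperones were higher (median 0.79, all genes 0.057) and 6 of 8 TRiC subunits lower. The largest changes under LAQ824 were those of DNAJC7 (-1.61), HSPA12B (1.43) and PPP5C (-1.36). ER chaperones were higher under other compounds too, 4 of 6 under MC1568 (median 0.58, all genes 0.26) and 4 of 6 under bromosporin (median 0.57, all genes -0.12). In the equal-dose contrast of WT161 5 of 6 were higher (median 0.46, all genes -0.047).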

How the data were processed

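Poly-A RNA was sequenced on Illumina instruments, and the authors deposited TPM (transcript abundance per length and depth, 1 value per gene and sample). The study's methods name STAR (hg19) and RSEM, the submitters' processing notes STAR and edgeR, and which tool wrote the deposited values is not settled by these sources. The 16359 genes that reached 1 TPM in any 2 samples entered the tests as log2(TPM + 1) with limma 3.58.1 in R 4.3.3 (lmFit, eBayes with trend). The fit held 42 columns, the 40 treated samples and the mean of each DMSO pair, with compound and dose level as terms and 20 residual degrees of freedom. Changes are compound minus DMSO over both doses, called at a Benjamini-Hochberg adjusted p below 0.05 over all genes. For WT161 at single doses the spread came from the other 19 compounds. N1302, entinostat and means over members had no test. Whole read numbers were recovered from the TPM steps in 23643 of 23645 genes (99.99%, tolerance 0.02) and served for depth and 1 alternative. Over 10376 genes the concentration by flow cell interaction of the DMSO samples had 1.03 times the variance of counting noise. Scripts were tested on simulated data. Members, gene lists and tests were chosen with earlier results of these data known. Named genes were 13 fixed members, the 5 members of largest change in each direction under WT161 and in its equal-dose contrast, and those at 6 h under N1302 and entinostat. Other called members are given by change, and of the further proteostasis genes the 3 of largest change. Promoter windows are RefSeq's (GRCh38.p14). Alternatives are listed in the closing section.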

Additional observations from a re-analysis of the deposited data

Results flagged for a closer look

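Across the 5 HDAC inhibitors of the screen, 5 of the 40 members had a compound far from the others, by the gap to the nearest compound divided by the whole range (over 0.71 for 5 values). Chance alone sets apart about 1 in 20 such groups, and compounds of different targets are not replicates. DNAJB4 changed by -0.54 under LAQ824, with the nearest other compound at 0.18. FKBP4 changed by -0.64 under LAQ824, with the nearest at -0.08. HSPA12A changed by 0.88 under MC1568, with the nearest at 0.0. SERPINH1 changed by 0.56 under MC1568, with the nearest at -0.33. HSPE1 changed by 0.16 under OJI-1, with the nearest at -0.32. No member passed the test of a difference between the doses of WT161.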

How the results depend on the processing

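None of the 124 calls of a member under a screen compound, at a dose of WT161 or in its equal-dose contrast changed direction in the alternatives run, whereas changes that were not called did in places, such as that of HSF1 under WT161 (-0.24, within the flow cell 0.02). N1302 and entinostat had no test. Of the values for single members under WT161 and in its equal-dose contrast, 222 and 230 kept their side of the threshold and 17 and 35 lost the call, mostly those of HSPB2, DNAJA4, CDC37, HSPE1 and DNAJC2 under WT161, and the cause was not tested. With a change of at least 1 also required, the calls were 2 under WT161, 8 under LAQ824, 1 under MC1568, 4 under bromosporin, 1 under SGC-CBP30, 7 under the other 13 compounds, 2 in the equal-dose contrast, and 2 and 0 at the high and low dose of WT161, beside 10.4%, 25.4%, 6.95%, 13.1%, 1.44%, 0.702%, 9.6%, 17.1% and 2.6% of all genes in this order. Fitted with its own samples and DMSO only, MC1568 had 24 calls, Merck60 10, SGC-CBP30 13 and the other 13 compounds 110.0, beside 61.0%, 18.4%, 20.8% and 18.1% of all genes. Within its flow cell MC1568 had 16 (42.2% of all genes). Limma-voom on whole reads, chosen after seeing the data, gave 17 for MC1568, 1 for Merck60 and 6 for SGC-CBP30 (34.0%, 0.538% and 9.24%). Leaving out the 3 libraries of mostly even counts, also chosen after seeing the data, gave 4 for bromosporin and 5 for SGC-CBP30 (8.8% and 5.57%).

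Replicate numbers of the screen DMSO samples coincide with flow cells, number 1 with C4JM1ACXX and number 2 with H144EBGXX. Over all genes tested, deviations of the same number correlated by only 0.07 between concentrations. Over 10376 genes with at least 100 reads, however, the shared flow cell difference had 2.21 times the variance of counting noise. The main fit averaged the samples of each concentration, and fits without this averaging are given next. With all 4 DMSO samples separate, Merck60 and OJI-1 had 2 calls each, SGC-CBP30 7 and the other 13 compounds 42, beside 0.648%, 1.22%, 9.84% and 4.63% of all genes. Adding the replicate block to this fit gave 2, 2, 7 and 41 (0.446%, 0.899%, 8.88% and 4.34%).

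At the low dose of WT161 the 1 call became 4 with median-ratio scaling, 2 with no filter, 2 with a filter on a mean of 5 TPM and 0 with the spread from flow cell C5JW5ACXX, beside 6.46%, 4.19%, 8.46% and 2.52% of all genes. Without 1 DMSO sample it lay between 1 and 3, with 3 when the second 0.1% DMSO sample was left out. Without 1 DMSO sample or 1 comparison compound the calls ran from 15 to 16 for WT161, 16 to 21 for the equal-dose contrast, 22 to 25 for LAQ824, 7 to 8 for MC1568, 18 to 19 for bromosporin, 8 to 9 for the high dose of WT161 and 25 to 27 for the other 13 compounds. Counts of these leave-out fits, the low dose included, are given without the share of all genes. They show only how stable the number of calls was and are no result about chaperones.

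The means over the members moved by more than the DMSO spread of 0.019 and in part changed sign, so their signs near 0 carry no weight. With a pseudocount of 0.1 they were 0.113 for WT161 low, -0.256 for LAQ824 high, 0.068 for MC1568 high, 0.128 and -0.101 for OJI-1 high and low, -0.344 for N1302, and 0.015 and -0.073 for entinostat at 6 and 24 h. Median-ratio scaling gave -0.029 and 0.018 for WT161 high and low, -0.156 and -0.182 for LAQ824, -0.059 for MC1568 low, 0.012 and -0.048 for Merck60, 0.124 and 0.018 for OJI-1, -0.058 for N1302, and 0.077 and -0.009 for entinostat at 6 and 24 h. The median over the members was -0.018 and 0.122 for WT161, -0.291 and -0.281 for LAQ824, -0.086 and -0.096 for MC1568, -0.042 and 0.014 for Merck60, 0.049 for OJI-1 low, -0.355 for N1302, and -0.151 and -0.213 for entinostat at 6 and 24 h. Against both 6 h DMSO samples titled RH4 the means were -0.176 for N1302 and -0.241 for entinostat. Scaling moved 9 treated samples by more than 0.1, by 0.37 for N1302, 0.20 for bromosporin at the high dose, 0.17 and 0.12 for entinostat at 6 and 24 h, 0.13 for UNC0638 and 0.11 for Cpd50 at the high dose, -0.11 and -0.12 for WT161 and GSKLSD1 at the low dose, and -0.10 for SGC-CBP30 at the high dose.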

Other observations

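DMSO levels of several heat-inducible members differed between the RH4-titled control samples, 1 sample each, and every N1302 and entinostat change is relative to them. From 1 to 6 to 24 h in the time course HSPA8 was at 1918, 2951 and 2453 TPM, DNAJB1 at 69.6, 119 and 107, HSPH1 at 253, 359 and 312, BAG3 at 14.5, 23.3 and 20.8, and CHORDC1 at 39.8, 66.7 and 55.8, each lowest at 1 h and highest at 6 h. The 6 h DMSO sample of the N1302 experiment held more of each again, with 4299 TPM of HSPA8, 153 of DNAJB1, 524 of HSPH1, 41.5 of BAG3 and 93.5 of CHORDC1.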
